A study of Mus musculus with 55 samples.

Results

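The genes described here are 10 members of the bone morphogenetic protein (BMP) pathway, measured by RNA sequencing in cells sorted from mouse liver. They are 5 ligands (Bmp2, Bmp4, Bmp6, Bmp10 and Gdf2, whose protein is also called BMP9), 2 receptors (Acvrl1 and Eng) and 3 genes that respond to or restrain the pathway (Id1, Smad6 and Smad7). The members were chosen by symbol out of 24478 symbols in the deposited table, and a symbol with several transcript rows was read from the row whose average level was highest. The libraries came from 10 populations sorted by FACS from C57B/L6 livers, either normal or after partial hepatectomy (PH, surgical removal of part of the liver). Normal liver gave 4 libraries each of clonal biliary epithelial cells (cBEC), biliary epithelial cells (BEC) and hepatocytes (HC), 3 of liver sinusoidal endothelial cells (LSEC), and 2 each of non progenitor ducts (NPD), endothelial cells (EC), Kupffer cells (KC), hepatic stellate cells (HSC), blood cells and Thy1 cells. After PH there were 5 libraries of LSEC, 4 of HC, 3 each of HSC, KC and EC, and 2 each of the remaining 5 populations (Thy1, blood, NPD, BEC and cBEC), making 27 normal and 28 PH libraries. The labels name no transgene and give no time after surgery, no age and no batch. They do not say whether replicates came from separate animals, so p-values here measure only the spread between these libraries.

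BMPs are secreted dimers of the TGF-beta superfamily that bind pairs of type I and type II serine/threonine kinase receptors, whereupon SMAD1, SMAD5 and SMAD9 are phosphorylated and enter the nucleus with SMAD4. In liver, BMP2 and BMP6 from sinusoidal endothelium act on hepatocytes to set hepcidin, the hormone of iron balance. BMP9 and BMP10 act mainly on endothelium, where they bind the type I receptor ALK1 (Acvrl1) with the co-receptor endoglin (Eng). ID1, SMAD6 and SMAD7 are encoded by genes that BMP signalling induces, and the last pair feed back to inhibit it.

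In normal liver Gdf2 and Bmp10 were at their highest level in HSC, Bmp2 and Bmp6 in LSEC, and Bmp4 in NPD, Thy1 cells and HSC. Acvrl1 was highest in EC, followed by KC, Thy1 cells and LSEC, and Eng was highest in LSEC and then EC. All 10 members were low in hepatocytes, both in normal liver and after PH. The highest value in any hepatocyte library was 5.91 FPKM (Id1) and the highest without Id1 was 3.65 FPKM (Eng), both after PH. Hepatocyte values were listed with fewer digits than those of the other sorts. The reason is not known, which limits comparisons of HC with other populations. FPKM scales fragments to transcript length and to library size, so levels of different genes are comparable per length. After PH, 21 of 86 tests of a member in a population were called, 7 higher and 14 lower, in 5 of the 10 populations. The share of all genes called in these 5 was 64% in blood, 36.8% in KC, 15.2% in NPD, 8.46% in LSEC and 1.81% in BEC. A call is a Benjamini-Hochberg adjusted p under 0.05 over all genes tested in that population, by limma on log2(FPKM + 1), two-sided, and 14 further pairs of member and population were too low to test (under 1 FPKM in too many libraries). For genes with low FPKM, such a log2 change is smaller than the true ratio.

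The promoters of the ligands found mainly in HSC are shown because Gdf2 and Bmp10 varied together across the 20 groups of libraries (Pearson r = 0.84 between group means of log2(FPKM + 1), a description only). The windows hold the 250 bases before the transcription start, 5′ to 3′, from RefSeq for build GRCm38.p6, and capitals mark the letters GATAAG, a form bound by GATA factors. Other forms, such as the AGATAA near the end of the Bmp10 window, were not searched for or marked. They lie at chr14:33940789-33941038 on the plus strand for Gdf2 and at chr6:87428744-87428993 on the plus strand for Bmp10.
Gdf2: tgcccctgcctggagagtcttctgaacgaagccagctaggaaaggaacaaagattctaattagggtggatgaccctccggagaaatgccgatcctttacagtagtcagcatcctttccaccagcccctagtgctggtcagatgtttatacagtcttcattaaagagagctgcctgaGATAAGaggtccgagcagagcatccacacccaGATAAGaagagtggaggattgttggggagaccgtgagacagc
Bmp10: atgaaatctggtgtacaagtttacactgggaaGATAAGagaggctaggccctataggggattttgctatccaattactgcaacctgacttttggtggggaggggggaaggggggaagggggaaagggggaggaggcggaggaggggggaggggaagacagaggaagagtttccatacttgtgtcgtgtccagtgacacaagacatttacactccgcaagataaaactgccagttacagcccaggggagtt
GATAAG stood at -74 and -42 from the start in Gdf2 and at -218 in Bmp10. Searched on both strands (CTTATC on the other), it was present in 7.44% of 32851 mouse promoter windows that ran from 250 bases before to 50 after the start, and at least 2 copies were present in 0.45% of them. The motifs were picked after the sequences had been read, and a match is a description of the letters, not a binding site.

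A 30-base stretch across the start of Smad6, an inhibitory SMAD, is shown for the palindrome GTCTAGAC (capitals), the letters known as a SMAD binding element. It lies at chr9:64022045-64022074 on the minus strand in the same build.
Smad6: gccgccaaagtGTCTAGACtggcatatgat
The palindrome was present in 0.21% of the same 32851 windows. It was found in Smad6 alone of the 6 members whose promoters were searched (Bmp4, Bmp6, Bmp10, Gdf2, Eng and Smad6). GGCGCC, a GC-rich element of SMAD1 and SMAD5, which carry BMP signals, was also searched on both strands. GGCGCC was in none of the 6 and in 11.87% of all windows.

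In the table's own build, mm9, the members lie at chr2:133377895-133388632 for Bmp2, chr14:47003200-47010344 for Bmp4, chr13:38437585-38592183 for Bmp6, chr6:87378988-87384506 for Bmp10 and chr14:34754225-34760384 for Gdf2. The receptors lie at chr15:100958953-100975767 for Acvrl1 and chr2:32502115-32538189 for Eng, and the response genes at chr2:152561987-152563146 for Id1, chr9:63800883-63869866 for Smad6 and chr18:75527019-75555588 for Smad7. Bmp4 and Smad6 are on the minus strand and the other 8 on the plus strand. Each span is that of a whole RefSeq transcript, and which of its exons were counted is not known. Bmp4 had 2 transcript rows, Eng had 3 and Acvrl1 had 5.

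Read depth is unknown, because FPKM alone do not give it. Sums of FPKM per library ranged from 624726 to 1203197, and the correlation of log2(FPKM + 1) between replicates ranged from 0.919 to 0.996. Summed levels of marker lists were used to check the labels. The HSC list (8 genes, among them Lrat, Reln and Colec11) summed to 8772 to 10622 FPKM in normal HSC and to 7693 to 9955 FPKM in PH HSC, and the LSEC list (8 genes, among them Stab2, Clec4g and Lyve1) to 6029 to 11377 FPKM in normal LSEC. The NPD sort carried the mesothelial list (Msln, Upk3b, Wt1, Lrrn4 and Upk1b, summing to 4806 to 5143 FPKM in normal liver) as well as the duct list (2600.3 to 3817 FPKM). The normal KC sort carried the LSEC list (3702 to 5090 FPKM) and the endothelial list (990 to 1229 FPKM). The part of such cells in the normal KC levels of Bmp2, Bmp6, Acvrl1 and Eng was not tested. In the blood sort after PH the KC list summed to 11525 to 20107 FPKM and the lymphocyte list to 30.1 to 73 FPKM, against 743 to 1068 and 1884 to 1929 FPKM in normal blood. In such bulk libraries fewer cells of a type and less RNA per cell cannot be told apart. Among the other pathway genes named below, Id2, Id3, Tob1, Twsg1, Hamp and Hamp2 exceeded 10 FPKM in hepatocytes, and hepatocyte transcripts such as Hamp were listed at 0 in most libraries of the other sorts, which limits comparisons of these genes there. The library titled PH cBEC replicate 1 carries the treatment tag normal and was kept as titled. The library titled PH KC replicate 3 lacks a cell type tag and was also kept as titled.

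**Figure D1:**
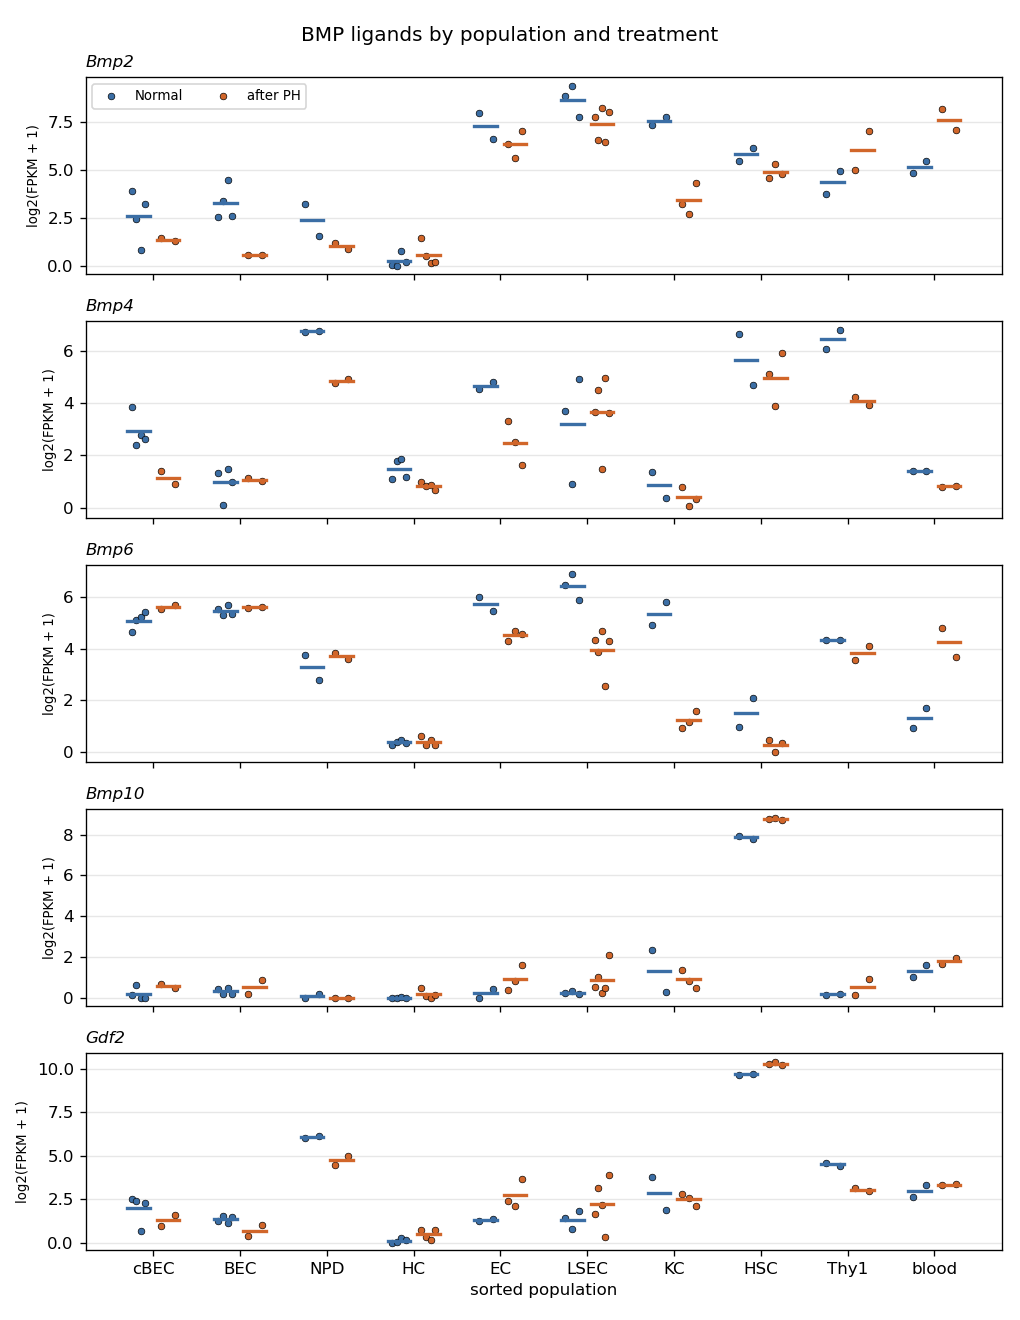
Level of the 5 ligands, as log2(FPKM + 1), in each library of the 10 sorted populations (x axis), blue for normal liver and orange after PH; points are libraries and bars are group means on the log scale. Gdf2 and Bmp10 stand highest in HSC, where the PH libraries lie above the normal ones, and Bmp6 falls in LSEC and KC after PH.

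Gdf2, the BMP9 ligand, was far higher in HSC than in any other population. Normal HSC held 789 and 838 FPKM. NPD was next at 64.2 and 70.8 FPKM, followed by Thy1 cells at 23.2 and 20.6 FPKM, and these 3 populations did not overlap. All other normal libraries were at 12.8 FPKM or lower. The mean in HSC was 12.1 times that in NPD, and after PH it was 47.2 times the PH NPD mean.

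Bmp10, a ligand best known from the heart, stood higher in HSC than elsewhere by a still wider ratio. Normal HSC held 242 and 222 FPKM and PH HSC held 427, 446 and 421 FPKM. The highest value in the 50 libraries of the other populations was 4.15 FPKM, in a normal KC library, and 10 of the 55 values were listed at 0. The mean in normal HSC was 106 times that in KC, the next population, and KC overlapped with blood (1.06 and 2.01 FPKM).

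**Figure D2:**
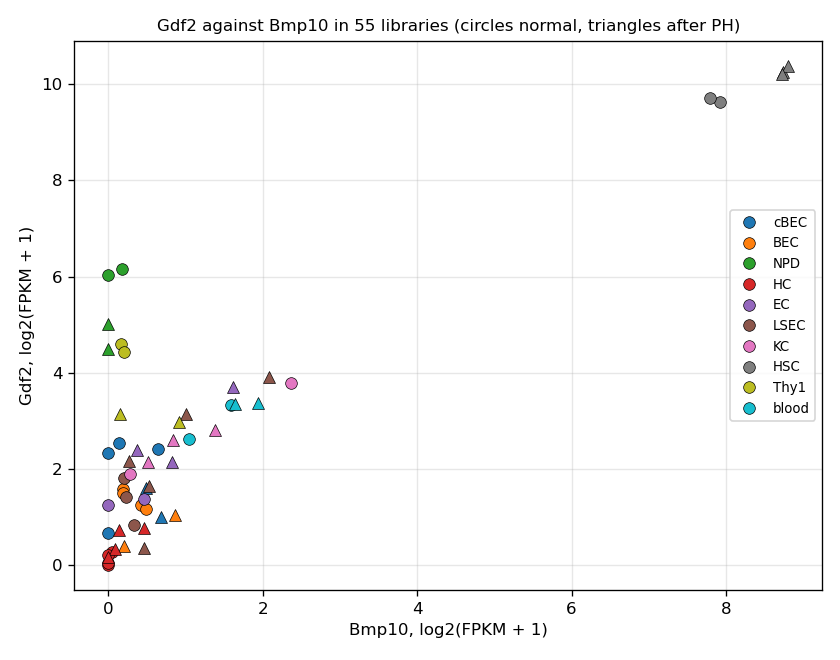
Gdf2 (y axis) against Bmp10 (x axis), both as log2(FPKM + 1), in all 55 libraries, coloured by population, with circles for normal liver and triangles after PH. The 5 HSC libraries stand alone at the upper right, with PH above normal, and NPD and Thy1 libraries hold Gdf2 with little Bmp10.

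Among the genes whose group means over the 20 groups were most like those of Bmp10 were Rgs4 (Pearson r = 0.986) and Lama1 (0.985), out of 11736 candidate symbols. Those most like Gdf2 were Tbx20 (0.971), Hand2 (0.967) and Mrvi1 (0.963). Hand2 belongs to the HSC marker list. These values describe 20 group means in which the same HSC libraries carry most of the variation.

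Bmp2, an endothelial ligand that acts on hepatocytes, was highest in LSEC, with 454, 654 and 218 FPKM in the 3 normal libraries. KC held 163 and 216 FPKM and EC 252 and 97.3 FPKM. The lowest EC library was below the lowest of KC, and EC overlapped with both KC and LSEC. HSC followed at 57.4 ± 19.2 FPKM (SD, n = 2) and blood at 35.3 ± 11.2 FPKM (SD, n = 2), while every duct mean was near 10 FPKM or lower.

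Bmp6, the other endothelial ligand of hepcidin control, was highest in normal LSEC at 88.3, 117 and 58.5 FPKM. It overlapped there with EC at 63.3 and 42.9 FPKM. In ductal cells it was at 43.4 ± 5.92 FPKM (SD, n = 4) in BEC and 33.6 ± 7.39 FPKM (SD, n = 4) in cBEC, where Bmp2 was at 10.3 ± 7.63 and 6.96 ± 5.78 FPKM (SD, n = 4 each). The order of means was LSEC, EC, BEC, KC, cBEC, Thy1, NPD, HSC, blood and HC, and each of LSEC, EC, BEC and KC overlapped with the next. HSC was among the lowest, at 0.934 and 3.26 FPKM.

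Bmp4, a ligand widely made by mesenchyme, had its highest normal mean in NPD (105 and 107 FPKM). Thy1 cells held 66.5 and 109.6 FPKM and HSC 97.4 and 24.8 FPKM. The 2 HSC libraries were far apart, and neighbours among NPD, Thy1, HSC, EC and LSEC overlapped. EC held 21.9 and 27.2 FPKM. KC, BEC, blood and HC means were all below 2 FPKM.

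For Bmp2 the most similar genes over the 20 group means were Oit3 (0.970), Clec14a (0.969) and Plxnc1 (0.969), of which Oit3 is in the LSEC marker list. For Bmp6 they were Itga6 (0.925), Mansc1 (0.925) and Fam174b (0.924), and for Bmp4 Zfpm2 (0.919), Gpx8 (0.916) and Igf2 (0.915). All of these correlations share the same libraries.

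**Figure D3:**
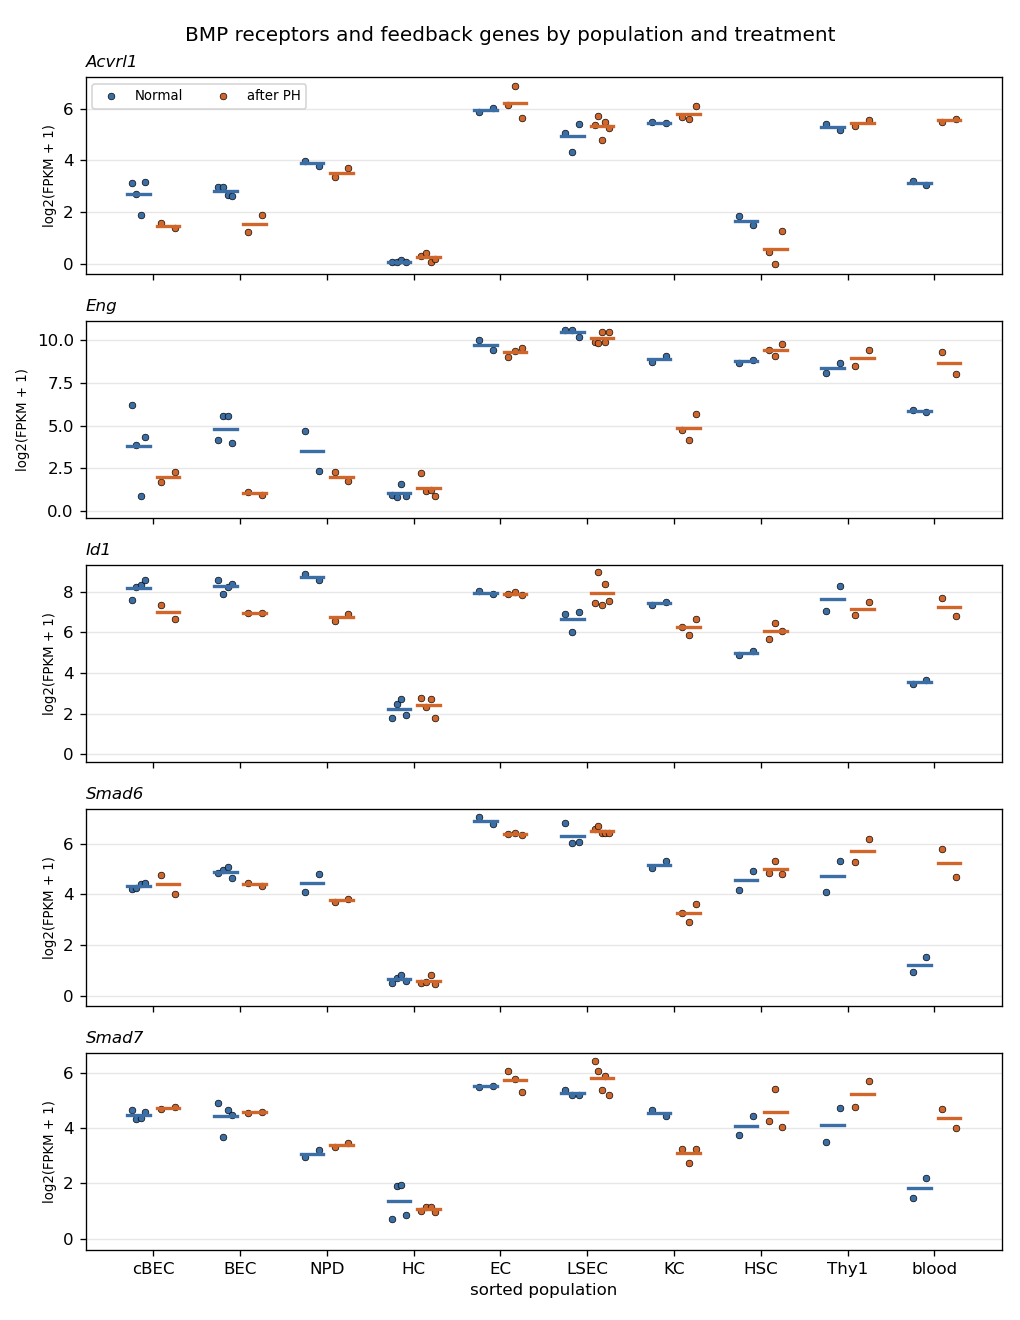
Level of the receptors Acvrl1 and Eng and of Id1, Smad6 and Smad7, as log2(FPKM + 1), in each library by population (x axis), blue for normal and orange after PH; bars are group means on the log scale. Eng, Id1, Smad6 and Smad7 are lower in KC and higher in blood after PH, while Acvrl1 is not lower in KC after PH.

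Acvrl1, the ALK1 receptor, was highest in normal EC at 57.7 and 64.6 FPKM. KC held 43.4 and 42.3 FPKM, Thy1 cells 41.2 and 35 FPKM and LSEC 32.5, 19 and 41.6 FPKM. EC did not overlap with these, whereas Thy1 and LSEC overlapped with each other. HSC, the population with the most Gdf2 and Bmp10, held 2.57 and 1.81 FPKM, above HC alone.

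Eng, the co-receptor endoglin, was highest in LSEC, with 1528, 1564 and 1159 FPKM, and all 3 libraries stood above every other population. EC held 1031 and 681 FPKM. KC (419 and 544 FPKM) and HSC (411 and 463 FPKM) overlapped, with Thy1 cells below HSC at 271 and 397 FPKM. HSC thus held a high level of Eng beside a low level of Acvrl1.

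Id1, a transcriptional regulator induced by BMP signals, was highest in NPD at 469 and 389 FPKM. BEC held 388, 242, 307 and 337 FPKM, and BEC, cBEC, EC and Thy1 each overlapped with the next in order. LSEC was lower at 121, 63.6 and 128 FPKM, and HSC lower again at 28.3 and 32.9 FPKM. HC was lowest at 2.48, 4.53, 5.48 and 2.86 FPKM.

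Smad6 and Smad7, which encode the inhibitory SMADs, followed a common order at the top. Smad6 was highest in EC at 129 and 108 FPKM and in LSEC at 112, 63.2 and 65.2 FPKM, which overlapped. Smad7 was at 43.5 and 45.2 FPKM in EC and at 40.3, 35.7 and 35.7 FPKM in LSEC, which did not overlap. Across the 20 groups their means had a Pearson r of 0.96, and both were at their lowest in blood and HC in normal liver.

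The level of all 10 members differed among the 10 populations in normal liver and again after PH, by limma's F test. This is close to the background, since 93.3% of 16139 genes differed in normal liver and 90.1% of 15509 genes after PH. The response to PH differed among populations for 8 of the 10 (9 interaction terms, 20 groups), against 47.8% of 16527 genes. Bmp4 (adjusted p = 0.132) and Bmp10 (adjusted p = 0.555) did not pass that test. Gdf2, which passed (adjusted p = 0.0277), did not with a pseudocount of 0.1 (0.0875), and Bmp4 passed with quantile normalization (0.0426).

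HSC and LSEC, the main sources of the ligands, differed in 9 of the 10 members in normal liver, against 21.2% of 12293 genes (9.16% higher in HSC and 12% lower). Gdf2 was higher in HSC by 8.32 on the log2 scale (SE 0.33, limma adjusted p = 0.000144), with LSEC at 1.67, 0.772 and 2.51 FPKM. Bmp10 was higher in HSC by 7.61 (SE 0.26, limma adjusted p = 0.00014), with LSEC at 0.166, 0.261 and 0.151 FPKM. Every LSEC value of Bmp10 was under 1 FPKM, so it passed the filter only through the HSC libraries where it is high. Its call and p-value add no support beyond these levels. The other 7 called members were lower in HSC, most of all Bmp6 (log2 difference -4.90) and Acvrl1 (-3.27), followed by Bmp2 (-2.83), Smad6 (-1.73), Eng (-1.69), Id1 (-1.67) and Smad7 (-1.17). The median difference over the 10 was -1.68, against -0.20 over all genes tested. Without normal HSC replicate 1 the count was 5, and the HSC library that remained carried more of the LSEC list, which ranged from 210.5 to 1156 FPKM over the 2 normal HSC libraries, the higher value being in replicate 2. Eng lost the call (adjusted p = 0.0667) and Bmp4 gained one (0.00643) when all groups entered a single fit.

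Of 54 other BMP pathway genes in the table, 30 were tested and 16 were called, 10 higher and 6 lower in HSC. Bmp5, a further ligand, was higher in HSC by 8.13 (limma adjusted p = 0.00014), and its HSC level was 561 ± 165 FPKM (SD, n = 2) in normal liver and 522 ± 184 FPKM (SD, n = 3) after PH. Gdf6 (4.56), another ligand, and the target genes Tmem100 (5.71) and Hey2 (3.95) were higher too. Among the receptors, the type I receptor Bmpr1a (4.68) and the type II receptor Acvr2a (2.58) were higher.

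Between the HSC and Thy1 sorts, 5 of 10 members differed in normal liver, against 9.55% of 13229 genes (2.4% higher in HSC and 7.15% lower). Bmp10 (7.68, SE 0.31) and Gdf2 (5.16, SE 0.29) were higher in HSC. Bmp10 was under 1 FPKM in both Thy1 libraries and passed the filter only through HSC, so its call adds no support beyond the levels. Acvrl1 (-3.62), Bmp6 (-2.82) and Id1 (-2.70) were lower. Bmp4 was not called, with a 95% interval of the difference from -2.62 to 1.06. The count was 0 without either Thy1 replicate and 3 without HSC replicate 1, where an arm is left with 1 library that is assumed to vary like the other group. Without the filter on low values it was 3, with adjusted p = 0.079 for Bmp6 and 0.0785 for Id1.

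Markers of several cell types differed between these sorts as well. The duct list summed to 869.9 to 5147 FPKM in normal Thy1 cells and 0.292 to 33.7 FPKM in normal HSC, the mesothelial list to 1561 to 2336 and 0.864 to 3.07 FPKM, and the endothelial list to 1081 to 1252 and 78.6 to 299.8 FPKM. Of these lists 3 of 7, 5 of 5 and 1 of 8 genes tested were lower in HSC, and none was higher. Krt7, Epcam, Sox9, Cftr and Upk1b were among the genes at 0 in both HSC libraries. The part of these cells in the lower Acvrl1, Bmp6 and Id1 was not tested.

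Of 41 other pathway genes tested between HSC and Thy1 cells, 14 were called, 4 higher and 10 lower in HSC, where calls over all genes were also more often lower (7.15%) than higher (2.4%). Bmp5 was again the most different (6.97). Secreted inhibitors that trap BMP ligands were lower in HSC, among them Nbl1 (-6.86) and Fst (-4.49). Tob1, an intracellular inhibitor, was lower as well (-4.24), and the receptor Acvr2a was higher (2.53).

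LSEC and EC, both endothelial, gave no call among 9 members tested in normal liver, with 0.00843% of 11868 genes called. At an unadjusted p under 0.05 there were 3 members (and 9.24% of all genes), Id1 and Acvrl1 lower in LSEC and Eng higher. The 95% interval of the difference was -2.06 to -0.56 for Id1, -1.77 to -0.28 for Acvrl1 and -0.12 to 2.82 for Bmp2, so differences of 1 on the log2 scale are not shown to be absent.

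KC differed from LSEC in 3 of 9 members in normal liver, all lower in KC, against 13.4% of 12186 genes lower (27.6% in either direction). They were Eng (-1.56), Smad6 (-1.13) and Smad7 (-0.72). Bmp2 and Bmp6 did not pass, with 95% intervals from -2.21 to 0.02 and from -1.95 to -0.20. The normal KC libraries also held the LSEC list at 3702 to 5089.8 FPKM, beside the KC list (8 genes, among them Clec4f and Vsig4) at 16099.7 to 17790.2 FPKM. The count was 5 without LSEC replicate 3 and 1 without KC replicate 1. With all groups in a single fit Eng (adjusted p = 0.125) and Smad7 (0.183) lost the call, and Bmp4 (0.0158), Bmp6 (0.0386) and Gdf2 (0.0473) gained one.

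**Figure D4:**
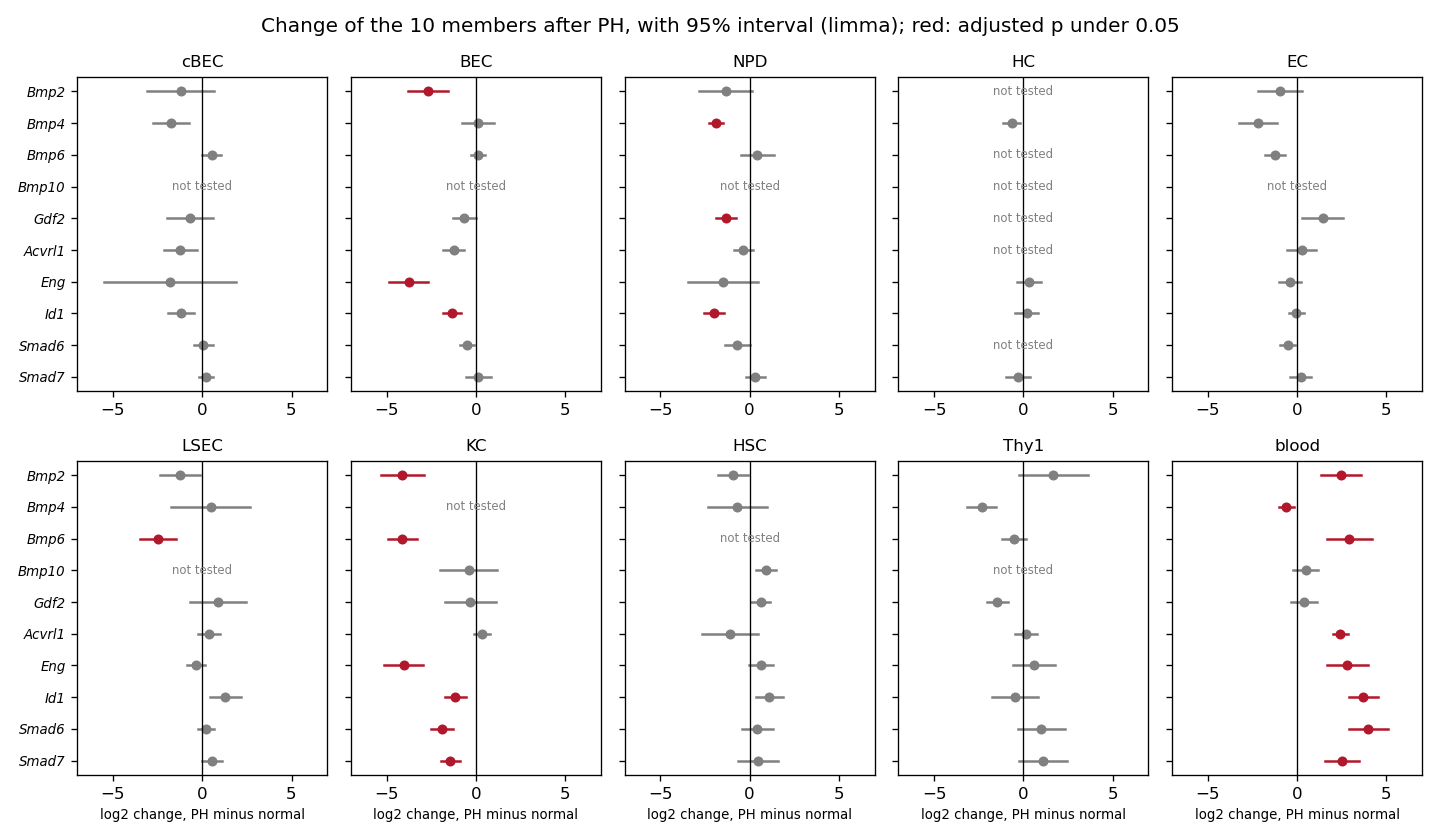
Change of each member after PH (x axis, log2 scale, PH minus normal) with its 95% interval from limma, 1 panel per population; red marks an adjusted p under 0.05. Calls are in BEC, NPD, LSEC, KC and blood, with all 6 calls in KC to the left of 0 and 7 of 8 in blood to the right.

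In KC, the liver's resident macrophages, 6 of 9 members fell after PH and none rose, against 20.1% of 11835 genes that fell and 36.8% called in all. Bmp2 went from 163 and 216 FPKM to 8.38, 5.63 and 19.5 FPKM, a mean 17 times lower. Bmp6 went from 29 and 54.2 FPKM to 0.913, 1.25 and 1.98 FPKM, a mean 30.1 times lower. Every PH library lay below both normal libraries for each ligand (as for 34.7% of all genes), with log2 changes of -4.12 (SE 0.48, limma adjusted p = 0.00314) for Bmp2 and -4.12 (SE 0.33, limma adjusted p = 0.00155) for Bmp6.

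The receptors in KC parted. Eng went from 419 and 544 FPKM to 25.5, 17.1 and 50 FPKM (log2 change -4.04, SE 0.44, limma adjusted p = 0.0026). Acvrl1 went from 43.4 and 42.3 FPKM to 50.4, 47.4 and 67.4 FPKM, with all 3 PH libraries above the normal ones (as for 28.9% of all genes), and was not called (limma adjusted p = 0.192, 95% interval -0.11 to 0.78). The mean of Eng was thus 15.6 times lower in libraries in which Acvrl1 was not lower.

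All 3 response genes fell in KC. Id1 went from 161 and 184 FPKM to 75.3, 58.5 and 101 FPKM (log2 change -1.16). Smad6 went from 31.8 and 38.2 FPKM to 8.67, 6.5 and 11.2 FPKM (-1.90), and Smad7 from 23.9 and 20.4 FPKM to 8.57, 5.7 and 8.5 FPKM (-1.45). None of the 3 overlapped between treatments, as for the 34.7% of all genes whose PH libraries lay below the normal ones. Without normal KC replicate 2 the count of called members was 3, namely Bmp2, Bmp6 and Eng.

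Endothelial markers moved with these members in the KC sort. The LSEC list summed to 3702 to 5089.8 FPKM in normal KC and to 325 to 593 FPKM after PH, and 8 of its 8 genes fell. The endothelial list (8 genes, among them Pecam1 and Cdh5) summed to 990.3 to 1229 and 289 to 519.8 FPKM, and 6 of 8 fell. No gene of either list was at 0 in all PH libraries, and the KC list summed to 32148 to 33204 FPKM after PH, with 3 of 8 genes higher. The part of these markers in the members' change was not tested.

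Among the other pathway genes in KC, 11 of 24 tested fell and none rose. The 6 with the smallest adjusted p were Tob1 (-3.06), the type II receptor Bmpr2 (-1.63), the type I receptor Acvr1 (-1.34), the target genes Id3 (-1.12) and Id4 (-2.96), and the common mediator Smad4 (-0.80). The median change over the 24 was -0.73, against -0.04 over all genes tested.

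**Figure D5:**
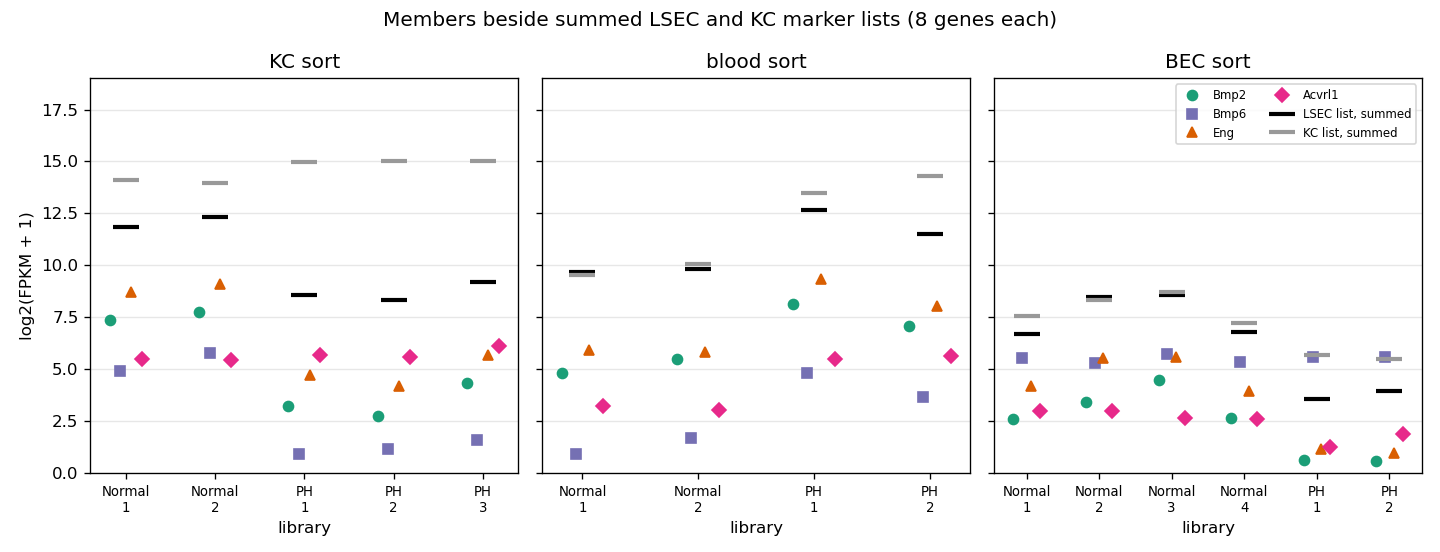
Bmp2, Bmp6, Eng and Acvrl1 (symbols) beside the summed LSEC list (black bars) and KC list (grey bars) in each library of the KC, blood and BEC sorts, all as log2(FPKM + 1). In KC the LSEC list, Eng, Bmp2 and Bmp6 are lower in all 3 PH libraries, in blood they are higher in both, and in BEC Eng and Bmp2 are lower in both while Bmp6 overlaps.

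In the blood sort 8 of 10 members were called after PH, 7 higher and 1 lower, where 64% of 12819 genes were called (24.3% higher and 39.7% lower). Among ligands, Bmp2 went from 27.4 and 43.2 to 283 and 134 FPKM (log2 change 2.47) and Bmp6 from 0.895 and 2.24 to 26.9 and 11.8 FPKM (2.93). Both rose in each PH library above the normal ones. Bmp4 fell, from 1.67 and 1.66 to 0.742 and 0.779 FPKM (-0.60), at levels near 1 FPKM. It passed the filter of 1 FPKM only through the normal libraries, so its call adds no support beyond these levels. That call was lost with quantile normalization (limma adjusted p = 0.164), with all groups in a single fit (0.554) and without either normal replicate or PH replicate 1 (0.0562 to 0.166).

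The receptors and response genes of the blood sort rose as well. Acvrl1 went from 8.27 and 7.16 to 44 and 48 FPKM (2.43, SE 0.16) and Eng from 59.7 and 55.7 to 638 and 263 FPKM (2.81, SE 0.44). Smad6 had the largest change, from 0.943 and 1.86 to 53.7 and 25 FPKM (4.0, SE 0.43). Id1 rose by 3.71 and Smad7 by 2.51 on the log2 scale. None of these overlapped between treatments, though with 2 libraries a group 85.2% of all genes did not.

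Marker lists of other cells moved in the same sort. The LSEC list summed to 809 to 904 FPKM in normal blood and to 2887 to 6403 FPKM after PH, the endothelial list to 188 to 203 and 822 to 1653 FPKM, and the KC list to 743 to 1068 and 11525 to 20107 FPKM, with 8 of 8 genes higher in each. In the lymphocyte list 8 of 8 genes fell, and in the neutrophil list 5 of 6. The part of these cells in the members' rise was not tested. Called members numbered 1 without normal blood replicate 1 and 2 without replicate 2.

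Other pathway genes in blood were called in 19 of 26 cases, 13 higher and 6 lower. Ski (3.28) and Smurf2 (2.40), which restrain SMAD signalling, rose with the receptors Bmpr2 (2.98) and Acvr1 (3.14). Id2 (-2.29) and Twsg1 (-1.70) fell.

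In BEC, cells of the bile ducts, 3 of 9 members fell after PH, against 1.57% of 12851 genes that fell and 1.81% called. The ligand Bmp2 went from 4.99, 9.61, 21.3 and 5.2 FPKM to 0.521 and 0.508 FPKM (log2 change -2.68, SE 0.50, limma adjusted p = 0.0389). Eng went from 17, 45.9, 47 and 14.6 FPKM to 1.23 and 0.915 FPKM (-3.77, SE 0.48, limma adjusted p = 0.0116). Both were near or under 1 FPKM in the PH libraries, and neither overlapped between treatments, the PH libraries of 22% of all genes lying below the normal ones. Bmp2 passed the filter of 1 FPKM only through the normal libraries, so its call adds no support beyond these levels.

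Id1 in BEC went from 388, 242, 307 and 337 FPKM to 124 and 125 FPKM (-1.33, SE 0.22, limma adjusted p = 0.0283). Bmp6 was 44.8, 38.2, 51.2 and 39.4 FPKM in normal BEC and 47.1 and 47.7 FPKM after PH, with a 95% interval of the change of -0.26 to 0.53. Bmp6 thus overlapped between treatments in the same libraries in which Bmp2 and Eng did not. Acvrl1 went from 6.93, 6.85, 5.25 and 5.08 to 1.35 and 2.67 FPKM without a call (limma adjusted p = 0.0559). Acvrl1 was called, as lower, with a pseudocount of 0.1 (limma adjusted p = 0.0373) and with upper-quartile scaling (0.044). The same held with all groups in a single fit (0.0156) and with a block on the replicate number (0.0024).

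In the same BEC libraries the LSEC list summed to 103 to 378 FPKM in normal liver and to 10.9 to 14.4 FPKM after PH (5 of 8 genes fell), the endothelial list to 24.5 to 93.2 and 0.945 to 2.15 FPKM (2 of 8 fell), and the KC list to 148 to 412 and 43.9 to 50.6 FPKM (6 of 8 fell, with Timd4 and Adgre1 at 0 in both PH libraries). The duct list (8 genes, among them Krt19 and Sox9) ranged from 14785 to 21717 FPKM in normal BEC and from 18552 to 20088 FPKM after PH. Their part in the fall of Bmp2 and Eng was not tested. The count was 1 without normal BEC replicate 1 and 0 without either PH replicate. Without the filter on low values it was also 0, with adjusted p = 0.1 for Bmp2, 0.0554 for Eng and 0.0686 for Id1, and with quantile normalization it was 1 (Eng). Id3 (-1.25) and Nbl1 (-1.73) were the 2 of 30 other pathway genes called, both lower.

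In cBEC none of 9 members was called, with 0.0681% of 13225 genes called. At an unadjusted limma p under 0.05 there were 4 members (and 10.2% of all genes), Bmp4, Acvrl1 and Id1 lower and Bmp6 higher. Id1 went from 193, 298, 322 and 388 FPKM to 162 and 100.1 FPKM (log2 change -1.19, 95% interval -1.90 to -0.48). Its PH libraries lay below all 4 normal ones (as for 14.4% of all genes), and it was called without normal cBEC replicate 1. Bmp6 was 23.7, 33.1, 36.3 and 41.2 FPKM in normal liver and 45.6 and 50.6 FPKM after PH. Acvrl1 was called, as lower, when all groups entered a single fit (adjusted p = 0.0136). None of 33 other pathway genes was called.

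Marker lists of other cells were lower in PH cBEC or overlapped, with no gene called. The mesothelial list summed to 71.5 to 412 FPKM in normal cBEC and 12.4 to 39.7 FPKM after PH, and the KC list to 82.6 to 131 and 43.3 to 59.3 FPKM, with 7 of its 8 genes at 0 in both PH libraries. The LSEC list summed to 13.8 to 151 and 15.7 to 19 FPKM and the endothelial list to 1.14 to 139 and 3.15 to 3.77 FPKM, which overlapped. The part of these cells in the members' values was not tested.

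In NPD 3 of 9 members fell after PH, against 5.51% of 13024 genes that fell and 15.2% called. Bmp4, at its highest here in normal liver, went from 105 and 107 FPKM to 26.3 and 29.3 FPKM (log2 change -1.89, SE 0.16, limma adjusted p = 0.00871). Gdf2 went from 64.2 and 70.8 FPKM to 21.7 and 31.1 FPKM (-1.34, SE 0.22, limma adjusted p = 0.0218). Id1 went from 469 and 389 FPKM to 94.7 and 121 FPKM (-1.99, SE 0.22, limma adjusted p = 0.0112). All 3 were lower in both PH libraries than in both normal ones, as were 27.6% of all genes.

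The HSC list, whose cells hold the most Gdf2, summed to 365 to 392 FPKM in normal NPD and 168 to 176 FPKM after PH (2 of 7 tested fell). The mesothelial list summed to 4806 to 5143 and 3655 to 4182 FPKM, and the KC list to 151 to 312 and 21.3 to 30.5 FPKM (7 of 8 fell). Bmp10 was 0 and 0.125 FPKM in normal NPD and was listed at 0 in both PH libraries. The part of these cells was not tested. The count of called members was 5 without either normal NPD replicate and 0 without either PH replicate. It was 1 (Id1) when all groups entered a single fit, with adjusted p = 0.116 for Bmp4 and 0.154 for Gdf2, and Gdf2 was also lost without the filter on low values (0.0597).

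Other pathway genes in NPD were called in 14 of 39 cases, 4 higher and 10 lower. Id4 (-2.34), a relative of Id1, and Smad9 (-2.29), a signal-carrying SMAD, fell. So did the ligand Bmp3 (-2.24) and the inhibitor Chrdl1 (-1.92). The ligand Gdf6 (2.59) and Bmper (2.12), which binds BMPs outside the cell, rose.

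In LSEC 1 of 9 members was called after PH, against 4.31% of 11501 genes that fell and 8.46% called. Bmp6 fell, from 88.3, 117 and 58.5 FPKM to 19.3, 13.6, 24.4, 4.83 and 18.4 FPKM, a mean 5.46 times lower (log2 change -2.48, SE 0.44, limma adjusted p = 0.012). Every PH library lay below every normal one, as for 10.5% of all genes. Bmp2 went from 454, 654 and 218 FPKM to 213, 94.5, 297, 86.3 and 259 FPKM, which overlapped and was not called (limma adjusted p = 0.155). Without normal LSEC replicate 1, the adjusted p of Bmp6 was 0.0552 and the count 0.

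Id1 went the other way in LSEC, from 121, 63.6 and 128 FPKM to 175, 499, 161, 334 and 188 FPKM. All 5 PH libraries were above the 3 normal ones, as for 8.27% of all genes (log2 change 1.29, SE 0.39), but the limma adjusted p was 0.0726. It was 0.0314 with upper-quartile scaling and 0.00436 with all groups in a single fit. Acvrl1 (32.5, 19 and 41.6 FPKM against 39.9, 51.1, 26.4, 43.7 and 37 FPKM) and Eng overlapped between treatments. The LSEC list summed to 6029 to 11377 FPKM in normal LSEC and 2174 to 6850.3 FPKM after PH (2 of 8 fell), and the endothelial list to 2654 to 2967 and 2732 to 3859 FPKM. Their part in the fall of Bmp6 was not tested. The 2 other pathway genes called of 27 tested were secreted proteins, Nbl1 (2.19) and Fstl1 (3.49), both higher.

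In EC none of 9 members was called, with 0.0249% of 12064 genes called. At an unadjusted limma p under 0.05 there were 4 members (and 10.8% of all genes), Bmp4, Bmp6 and Smad6 lower and Gdf2 higher. Bmp6 went from 63.3 and 42.9 FPKM to 18.5, 24.6 and 22.9 FPKM, with no overlap, as for the 12.9% of all genes whose PH libraries were lower (log2 change -1.22, 95% interval -1.77 to -0.66). Bmp4 went from 21.9 and 27.2 FPKM to 8.83, 4.67 and 2.11 FPKM (-2.19, 95% interval -3.27 to -1.11). In the same libraries the LSEC list summed to 3509 to 7097 FPKM in normal EC and 2254 to 4276 FPKM after PH, the duct list to 45.7 to 57.4 and 169 to 322 FPKM, and the mesothelial list to 10.6 to 148 and 139.8 to 549 FPKM, with no gene of the 3 lists called and none at 0 in all libraries of a group. The part of these cells in the values of Bmp6 and Gdf2 was not tested. Id1 overlapped, at 262 and 235 FPKM and 239, 255 and 230.3 FPKM. The change of Bmp6 in EC was not tested against that in LSEC alone, and none of 32 other pathway genes was called.

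In HSC none of 9 members was called, with 0.00853% of 11729 genes called. Gdf2 went from 789 and 838 FPKM to 1225, 1325 and 1187 FPKM (log2 difference 0.61, SE 0.24, limma adjusted p = 0.535). Bmp10 went from 242 and 222 FPKM to 427, 446 and 421 FPKM (0.89, SE 0.24, limma adjusted p = 0.417). For both, the 3 PH libraries were above the 2 normal ones, as were those of Eng (411 and 463 against 690.4, 537 and 876 FPKM) and Id1 (28.3 and 32.9 against 50.8, 88.3 and 65.4 FPKM). Of all genes tested, 14.7% had PH libraries wholly above the normal ones.

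At an unadjusted limma p under 0.05 HSC had 4 members (and 8.48% of all genes), Bmp10, Gdf2 and Id1 higher and Bmp2 lower. Bmp2 went from 43.8 and 70.9 FPKM to 22.9, 39 and 26.8 FPKM. The LSEC list moved with it, from 210.5 to 1156 FPKM to 63.3 to 111 FPKM, and its part was not tested. The difference of Bmp10 ranged from 0.66 to 0.96 over the settings and left-out libraries tried, and that of Gdf2 from 0.29 (with quantile normalization) to 0.66. Acvrl1 (adjusted p = 0.0169, lower) and Id1 (0.0471, higher) were called when all groups entered a single fit. None of 31 other pathway genes was called within HSC alone.

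In Thy1 cells none of 9 members was called, with 0.00747% of 13389 genes called. Bmp4 went from 66.5 and 109.6 FPKM to 17.9 and 14.3 FPKM (log2 difference -2.34, SE 0.33, limma adjusted p = 0.13). Gdf2 went from 23.2 and 20.6 FPKM to 7.84 and 6.89 FPKM (-1.45, SE 0.24, limma adjusted p = 0.13). These were the 2 members at an unadjusted p under 0.05, which 18.1% of all genes reached. With all groups in a single fit Bmp4 (adjusted p = 0.0482, lower) and Smad6 (0.0369, higher) were called. Beside them, the portal fibroblast or Thy1 list (8 genes) summed to 1934 to 2173 FPKM in normal liver and 619 to 1414 FPKM after PH, and the endothelial list to 1081 to 1252 and 1377 to 2616 FPKM. The mesothelial list summed to 1561 to 2336 and 951 to 1502 FPKM, and the KC list to 77 to 148 and 15.1 to 16.7 FPKM. The HSC list summed to 360 to 503 and 245 to 247 FPKM, while the duct and LSEC lists overlapped. Their part was not tested, and none of 42 other pathway genes was called.

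In hepatocytes, the cells on which BMP2 and BMP6 act, 4 of the 10 members were high enough to test and none was called, with 6.19% of 10029 genes called. Id1 was 2.48, 4.53, 5.48 and 2.86 FPKM in normal liver and 5.91, 4.04, 5.6 and 2.41 FPKM after PH, which overlapped. Bmp4 was the 1 member with an unadjusted p under 0.05, which 21.5% of all genes reached (95% interval of the change -1.13 to -0.16). It was 1.16, 2.48, 2.61 and 1.25 FPKM in normal liver and 0.98, 0.76, 0.82 and 0.61 FPKM after PH. Bmp4 thus passed the filter of 1 FPKM only through the normal libraries, where it was higher, and the test adds no support beyond these levels. Of 25 other pathway genes tested, 2 fell: Hamp2, a hepcidin gene (-5.12, limma adjusted p = 0.000535), and Smad9 (-0.72). Hamp, which encodes hepcidin, was 773 ± 266 FPKM (SD, n = 4) in normal liver and 1056 ± 515 FPKM (SD, n = 4) after PH and was not called.

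After PH, HSC stood above every other population for Gdf2 (1246 ± 71.3 FPKM, SD, n = 3) and Bmp10 (431 ± 12.8 FPKM, SD, n = 3), and LSEC did so for Eng (1133 ± 260.0 FPKM, SD, n = 5), as in normal liver. For Acvrl1, EC (77.8 ± 34.5 FPKM, SD, n = 3) and KC (55.1 ± 10.8 FPKM, SD, n = 3) again had the highest means, but now overlapped. For Bmp2 the PH blood mean (209 ± 105 FPKM, SD, n = 2) was highest and overlapped with LSEC (190.1 ± 95.8 FPKM, SD, n = 5). For Bmp6 the order was cBEC, BEC, EC, blood, LSEC, Thy1, NPD, KC, HC and HSC, and cBEC and BEC overlapped with each other but not with EC. The Id1 mean was highest in LSEC (271 ± 145 FPKM, SD, n = 5), which overlapped with EC, and the means of Smad6 and Smad7 were highest in LSEC and EC, which overlapped as well.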

How the data were processed

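The deposited table holds FPKM per RefSeq transcript, as the authors named it, for 55 libraries of 10 sorted populations, in 36141 rows. Per the submitters' processing notes, CASAVA 1.8.2, Bowtie 1.0.0 and build mm9 were used. Per the labels, cells were sorted into TRIzol and libraries followed a standard Illumina method. The counting tool and the annotation version are not given in the sources used here. Starts in the table were read as counted from 0, since spans equalled the RefSeq length for 1250 of 1279 small RNA genes only on that reading, and 1 was added.

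Groups follow the sample titles. A symbol was read from its row of highest mean. Values of log2(FPKM + 1) entered limma 3.58.1 (R 4.3.3) with its trended and robust moderation of variances, and two-sided p-values were Benjamini-Hochberg adjusted over all genes with at least 1 FPKM in as many fitted libraries as the smallest group has. PH was compared with normal within a population. The pairwise fits were also run on simulated data with independent noise for each gene and fixed shifts in genes of higher level. That setting holds no mixture of cells and no shifts in genes of low FPKM, so it does not bear on those limits. FPKM do not give depth, so no counting interval is given.

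The 10 members, all lists of pathway and marker genes and the naming rule were chosen with earlier results of these data known. Other pathway genes were named by the smallest adjusted p, at most 6 per comparison. For each ligand the 3 symbols with the highest Pearson correlation over 20 group means were named, among symbols reaching 10 FPKM. Some genes that these rules select are not reported here. Alternatives were a pseudocount of 0.1, no filter, upper-quartile scaling, quantile normalization, the mean over a symbol's rows, all groups in a single fit, a block on the replicate number, PH cBEC replicate 1 counted as normal, and each replicate left out. Plots used matplotlib 3.10.9 under Python 3.11.15.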

Additional observations from a re-analysis of the deposited data

Results flagged for a closer look

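The response to PH differed among the 10 populations for 8 members, by limma's F test of 9 interaction terms with p adjusted over all genes. The adjusted p was 3.12e-05 for Bmp2, 2.62e-11 for Bmp6 and 0.0277 for Gdf2 among the ligands. For Gdf2 it was 0.0875 with a pseudocount of 0.1, and it was 0.0556 without Normal EC replicate 1, 0.0559 without PH NPD replicate 1 and 0.0533 without PH Thy1 replicate 2. It was 6.15e-07 for Acvrl1 and 1.4e-05 for Eng, the receptors. For the response genes it was 1.6e-09 for Id1, 3.33e-11 for Smad6 and 0.000147 for Smad7. Such a difference was found for 47.8% of all genes.

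In groups of 4 or 5 libraries, 4 of 50 values of a member in a group had an extreme library far from the rest, where chance gives about 1 in 20, or 2.5. Normal HC replicate 3 was the extreme library in 3 of them, with Bmp10 at 0.03 FPKM against 0 in the others, Acvrl1 at 0.12 FPKM against 0.04, and Eng at 2.03 FPKM against 0.78 to 0.91. Normal cBEC replicate 3 was the other, with Gdf2 at 0.5997 FPKM against 3.99 to 4.79 in the other 3 libraries. For Bmp10 and Acvrl1 the remaining HC values were equal, so any different value would count as extreme. The chance rate does not hold for these, and their levels were below the filter of 1 FPKM.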

How the results depend on the processing

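The number of members called moved by over 1.5 times under another setting in 8 of the 17 comparisons. With all groups in a single fit it was 1 in cBEC (0 as reported), 1 in NPD (3), 2 in LSEC (1), 2 in HSC (0) and 2 in Thy1 cells (0). Without the filter on low values it was 0 in BEC (3) and 3 between HSC and Thy1 cells (5). Quantile normalization gave 1 in BEC, and upper-quartile scaling gave 2 in LSEC. The pseudocount of 0.1, the mean over a symbol's rows and PH cBEC replicate 1 counted as normal moved no count by over 1.5 times.

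Leaving out each replicate gave counts of 0 to 1 in cBEC, 0 to 3 in BEC, 0 to 5 in NPD, 0 to 1 in LSEC, 3 to 6 in KC, 1 to 8 in blood, and 0 throughout in HC, EC, HSC and Thy1 cells. It gave 5 to 9 between HSC and LSEC, 0 to 4 between HSC and Thy1 cells, 1 to 5 between KC and LSEC, 0 between LSEC and EC, 7 to 9 for the difference in response, and 10 for each difference among populations. Where this left 1 library in an arm, it was assumed to vary like the other group.

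Replicate numbers showed no pairing of normal with PH libraries within a population, a weak check with so few libraries. In the 2 populations with at least 3 shared numbers, 0 had every correlation of same-numbered deviations above 0.1, and over all populations these ranged from -0.672 to 0.574. With a replicate block the count was 0 in LSEC (adjusted p of Bmp6 0.116), 3 in Thy1 cells and 6 between KC and LSEC. Same-numbered libraries of different populations were not compared, so pairing between sorts such as KC and LSEC was not tested. Whether equal numbers share an animal is not known, so these counts were not set above those reported.

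For single members, 1007 values under another setting kept direction and side of the threshold, 24 gained a call, 21 lost one and 5 changed sign without a call. With a replicate left out these were 1641, 12, 67 and 18. Depth is unknown and limits the members near 1 FPKM.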
